A study of Mus musculus with 3 samples.

Results

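The genes described here encode the proteins of the cytosolic ribosome. The members are defined by their symbols and comprise every gene whose symbol is Rpl or Rps followed by a digit, together with Rplp0, Rplp1, Rplp2 and Rpsa, leaving out the Rps6k kinases and the symbols that carry -ps. This gave 85 of the 22954 genes in the deposited tables. Of these, 77 encode core subunits of the ribosome, 46 of the large (60S) and 31 of the small (40S) subunit. The other 8 were the paralogs or copies Rpl3l, Rpl7l1, Rpl22l1, Rpl36al, Rpl39l, Rps27l and Rps27rt, and Rps19bp1, which matched by its letters but encodes a protein that binds Rps19 and is not part of the ribosome.

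A ribosome holds one copy of nearly every such protein around its ribosomal RNA, and the acidic stalk proteins Rplp1 and Rplp2 sit on Rplp0. Ribosomal protein mRNAs are abundant and short, and most start with a cytosine followed by a stretch of pyrimidines, the 5′ terminal oligopyrimidine (TOP) motif. Through this motif the mTORC1 pathway and the RNA-binding protein Larp1 adjust their translation and stability together. In lung, small resting lymphocytes are known for a high share of such transcripts, and mature neutrophils for a low share.

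Single-cell RNA sequencing was done on the lungs of 3 wild-type female C57BL6/J mice, each 5 months after 13 Gy to the thorax, so that irradiation was common to all groups. The CONV mouse received the dose at a conventional dose rate. The CONV AsiDNA mouse received the same irradiation and intraperitoneal AsiDNA, a short double-stranded DNA that mimics a break and serves as a decoy for repair signalling, at 100 mg/kg on 2 consecutive days and 200 mg/kg on the day of irradiation. The FLASH mouse received the dose at an ultra-high dose rate without AsiDNA. Each condition was 1 mouse and 1 library, so no test between conditions was possible, and differences between libraries are given as values.

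The tables held 6372, 6983 and 6267 cells of the CONV, CONV AsiDNA and FLASH libraries with medians of 3450, 3678 and 3621 counts and of 1235.5, 1339 and 1315 genes per cell. These whole-number counts appear to have been adjusted before deposit, so sequencing depth is unknown and a gene at 0 is written here as listed at 0. Cells were placed in classes by at least 3 of the class's markers, with a lead of 2 over the next class, and 18111 of 19622 cells (92.3%) received one of 19 classes. In 618 cells at least 3 markers of 2 classes were found. The 17 classes with at least 20 cells in every library were compared, and each is called by its markers with "-like" added. Markers crossed between classes in places: Cyp2f2, a club cell marker, was above 0 in 95.9% of ciliated-like cells. The libraries shared between 9 and 17 cell barcodes. Levels are adjusted CPM, the counts of a gene over all cells of a class in a library, scaled to a common total of 1000000. The assay counts the 3′ end of a transcript once, so these levels need no division by gene length.

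The start of the transcription unit was examined because it carries the TOP motif. RefSeq (GRCm38.p6) gave a start for 65 of the 85 genes. A C at the annotated start followed by at least 4 further bases that are C or T, on the coding strand, was present in 14 of the 65 (21.5%) against 813 of 27025 genes (3.01%) with a start in the same table. A gene was counted where any 1 of its annotated starts had the run, and of the 14 genes, Rpl35a has 3 annotated starts and Rps21 has 2, each with the run at the 1 that is printed. The 14 were Rps27, Rps21, Rpl38, Rpl35a, Rps15a, Rps10, Rps18, Rplp2, Rpl28, Rps6, Rpl14, Rpl15, Rpl35 and Rps27rt. Under another definition, a run of the same length that began with a C directly after an A or G and within 10 bases of the annotated start, 30 of 65 (46.2%) and 26% of all genes had a run, and a run that begins at the start itself but follows a C or T is not counted there. A match is a description of letters, and annotated starts can lie some bases from the start used in lung. The 6 genes with a run at the start and the highest levels are printed with Rps27l and Rps9, whose levels departed from the others as described later. Each window runs 5′ to 3′ on the gene's strand from 20 bases before the start to the tenth base of the transcript, and capitals mark the pyrimidine run that begins at the start.
Rps27, chr3:90213639-90213668, minus strand: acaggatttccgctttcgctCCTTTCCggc
Rps21, chr2:180257359-180257388, plus strand: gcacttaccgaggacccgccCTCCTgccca
Rpl38, chr11:114668560-114668589, plus strand: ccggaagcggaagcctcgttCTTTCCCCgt
Rpl35a, chr16:33056462-33056491, plus strand: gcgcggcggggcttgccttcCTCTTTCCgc
Rps15a, chr7:118116138-118116167, minus strand: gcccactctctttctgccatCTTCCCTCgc
Rps10, chr17:27635235-27635264, minus strand: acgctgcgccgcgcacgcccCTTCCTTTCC
Rps27l, chr9:66946066-66946095, plus strand: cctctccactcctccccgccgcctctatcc
Rps9, chr7:3704021-3704050, plus strand: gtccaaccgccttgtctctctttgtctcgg
The Rps27l and Rps9 windows have no run at the annotated start. Under the other definition Rps27l has a run of 5 that begins 1 base after the start base. The annotated start of Rps9 is a T within a stretch of pyrimidines that neither definition counts. Whether these letters bear on the levels of the 2 genes was not tested. Of the related lists, the run at the start was found in 3 of 8 other known TOP mRNAs and in 0 of 69 genes of mitochondrial ribosomal proteins, whose mRNAs are not TOP mRNAs. It was found in 0 of 5 elongation factor genes, 1 of 15 genes of initiation factors 3 and 4, and 0 of 21 ribosome biogenesis factors.

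The 85 genes held 18.5%, 17.3% and 19.3% of all adjusted counts in the CONV, CONV AsiDNA and FLASH libraries, and the median cell held 17.6%, 17.4% and 18.3%. It was 37.8% ± 1.93 (SD, n = 3 libraries) in T-like, 36.9% ± 2.35 in ILC2-like and 35.9% ± 2.81 in B-like cells. DC-like cells followed at 25.2% ± 2.46 and NK-like cells at 21.5% ± 1.75. Patrolling monocyte-like (14.0% ± 2.55), mast cell or basophil-like (14.0% ± 4.38) and interstitial macrophage (IM)-like cells (13.7% ± 1.14) formed a middle group.

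Structural and epithelial classes were lower. Smooth muscle (SMC)-like cells held 8.67% ± 1.87, fibroblast-like 7.47% ± 0.166, alveolar type 2 (AT2)-like 6.26% ± 1.23, endothelial (EC)-like 5.38% ± 2.15 and club-like cells 4.97% ± 1.02. Alveolar macrophage (AM)-like cells held 3.63% ± 0.166, alveolar type 1 (AT1)-like 3.00% ± 2.16, ciliated-like 2.51% ± 0.174 and neutrophil-like cells 0.901% ± 0.0327. In this order, the range over the 3 libraries lay apart from that of the next class only between B-like and DC-like, NK-like and patrolling monocyte-like, IM-like and SMC-like, club-like and AM-like, and ciliated-like and neutrophil-like cells, and the other neighbours overlapped. The classes come from the same libraries, and within them ILC2-like over B-like, DC-like over NK-like and fibroblast-like over AT2-like cells were higher in 3 of 3 although their ranges overlapped. The remaining neighbours kept the order of their means in 1 or 2 of the 3 libraries. These values are shares, and fewer ribosomal protein transcripts cannot be told apart from more of other transcripts in a cell.

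**Figure D1:**
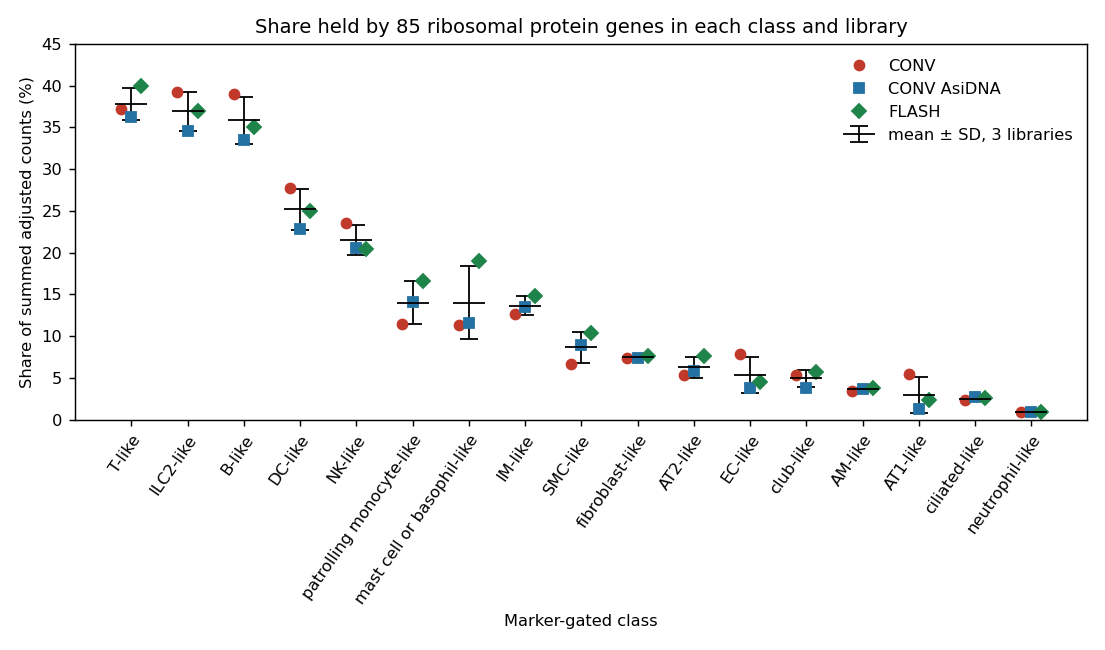
Share of the summed adjusted counts (%, y axis) held by the 85 ribosomal protein genes in each of 17 marker-gated classes (x axis) and each library (coloured symbols), with the mean ± SD of the 3 libraries in black. T-like, ILC2-like and B-like cells lie above 33% in every library, and neutrophil-like cells lie near 0.9%.

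Rps29, a small zinc-binding protein of the 40S subunit, had the highest mean level over classes, 6510 adjusted CPM. It was followed by Rps24 (3868), Rps27 (3566), Rplp1 (3153), Rpl37a (3148), Rpl13 (3042), Rps28 (2995) and Rps21 (2924). The lowest were Rpl39l (0.910), Rpl3l (6.53), Rps19bp1 (22.6), Rpl7l1 (45.7) and Rps27rt (58.8), all outside the core. Rps29 reached 16790, 14450 and 16160 adjusted CPM in T-like cells of the CONV, CONV AsiDNA and FLASH libraries, 1318, 1353 and 1120 in AM-like cells, and 742, 507 and 362 in neutrophil-like cells. The 3 classes did not overlap for Rps29.

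For 77 of the 85 genes the class with the highest mean level was T-like (38), ILC2-like (25) or B-like (14), against 9.87% of the 9721 genes tested. Neutrophil-like cells had the lowest level of 72 genes, against 22.8% of genes tested. The class with the highest level was another for 8 genes, 4 of them in DC-like cells. For the test, 83 of the 85 genes passed a filter of a mean of 10 adjusted CPM over class sums, and Rpl39l and Rpl3l did not. Each class was compared with the mean of the other 16 in limma, on log2(adjusted CPM + 10) with the library as a block and Benjamini-Hochberg adjustment over all 9721 genes. The replicates of this test are the 3 mice, which differed in treatment, and the added 10 makes the differences of low genes smaller than they are.

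All 77 core genes rose in T-like, B-like and ILC2-like cells. Of the 83 genes tested, 80 were called higher in T-like cells (25.0% of all genes tested were called higher), with a median log2 difference of 2.37 against -0.08 for all genes. In B-like cells 81 were called higher (all genes 20.2%, median 2.22), in ILC2-like cells 80 (all genes 22.8%, median 2.33), and in NK-like cells 79 (all genes 29.9%, median 1.50). Rpl12, which forms the base of the stalk, was highest in T-like cells at 6117, 5653 and 6593 adjusted CPM, against 177, 237 and 182 in AM-like cells, and its log2 difference in T-like cells was 3.39 (SE 0.288, limma adjusted p = 1.93e-12). Rps27 reached 15170, 12070 and 12310 adjusted CPM in B-like cells (3.17, SE 0.313, adjusted p = 8.18e-11). Rpl36, a large subunit protein, was at 3736, 2672 and 2969 in NK-like cells (2.31, SE 0.275, adjusted p = 6e-09). Rps15a, a small subunit protein whose window is printed above, rose by 3.28 in T-like and 3.11 in B-like cells. Rps24 reached 12710, 10910 and 11450 in ILC2-like cells, a difference of 2.99.

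Rps27l ran the other way in 3 of these lymphoid classes, and was the single gene called lower in T-like cells (all genes 35.2% lower) and in B-like cells (40.1%). It is the paralog of Rps27 and is known as a gene induced by p53. Its level was 47.2, 54.8 and 48.8 adjusted CPM in B-like cells, where it fell by 1.55 (SE 0.176, adjusted p = 1.85e-09), and 54.8, 86.0 and 58.1 in T-like cells, where it fell by 1.21 (adjusted p = 3.11e-07). It also fell in ILC2-like cells (-1.15). Rps19bp1 (-0.69) and Rpl7l1 (-0.52) also fell in ILC2-like cells (3 genes called lower in all, all genes 38.9%), and Rpl7l1 (-0.48) was the gene called lower in NK-like cells (34.5%). In NK-like cells Rps27l was not called (-0.27, adjusted p = 0.179).

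DC-like cells had 79 of 83 genes called higher and 0 lower (all genes 20.2% higher and 45.9% lower), with a median of 1.73 against -0.38 for all genes. Rpsa, the small subunit protein also known as the laminin receptor, was at 6189, 4778 and 5096 adjusted CPM in DC-like cells (2.81, SE 0.299, adjusted p = 4.09e-10). Rps26, also a small subunit protein, was at 3691, 2834 and 3149 (2.61). Rps27l, low in lymphoid classes, had its highest level of all classes here at 733, 685 and 558 adjusted CPM, a rise of 2.13 (adjusted p = 6.71e-13).

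Patrolling monocyte-like, IM-like and mast cell or basophil-like cells rose less. In patrolling monocyte-like cells 61 genes were called higher and 2 lower (all genes 32.7% and 33.1%), and in IM-like cells 55 higher and 0 lower (all genes 22.6% and 26.4%). Rps29 led the IM-like contrast at 10140, 10270 and 11140 adjusted CPM (1.56, adjusted p = 1.61e-05). Rps19 rose in patrolling monocyte-like cells (1904, 2681 and 3080 adjusted CPM, 1.53), while Rplp1, a stalk protein, fell there by 0.70 with 565, 1366 and 1552 adjusted CPM. Mast cell or basophil-like cells had 51 genes called higher and 3 lower (all genes 17.4% and 37.5%), with Rpl38 (1.71) and Rps23 (1.69) among the highest and Rps27l (-1.04) and Rpl31 (-0.71) among the lowest. These counts depended on the reference: with neutrophil-like cells left out of it, the genes called higher were 34 in patrolling monocyte-like, 26 in IM-like and 31 in mast cell or basophil-like cells (all genes 30.7%, 21.5% and 16.5%). With each class centred on its median gene they were 37, 31 and 56 in the same order (all genes 24.9%, 17.9% and 20.4%).

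**Figure D2:**
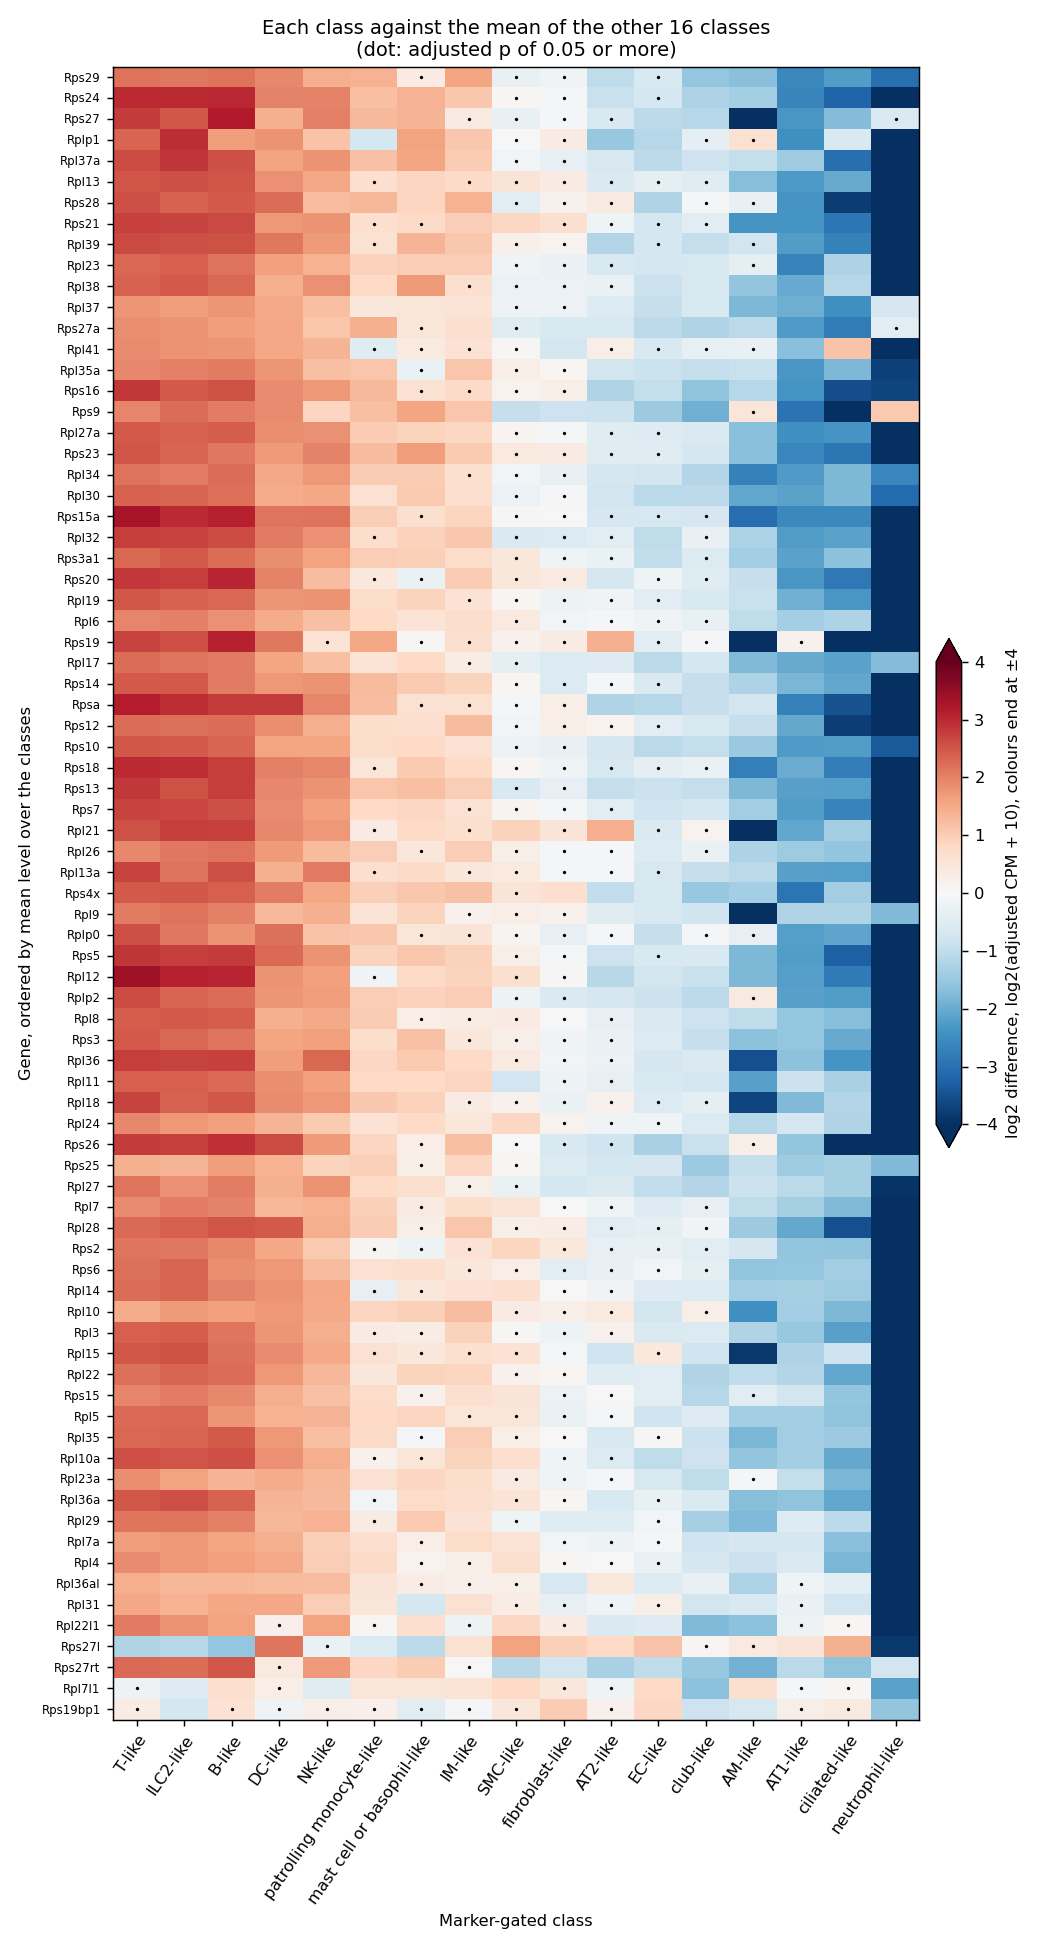
Log2 difference of 79 of the 83 tested genes (rows, ordered by mean level; the others are not shown) in each class (columns) from the mean of the other 16 classes, on log2(adjusted CPM + 10), with red higher, blue lower and colours ending at ±4. Dots mark differences with an adjusted p of 0.05 or more, and the row of Rps27l runs against the rows around it.

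AM-like cells departed from the lymphoid classes in a gene-by-gene manner. Of the 83 genes, 70 were called lower and 1 higher (all genes 34.5% and 33.6%), with a median of -1.26. Rps27 was at 0.400, 5.82 and 15.6 adjusted CPM and was above 0 in 0.103%, 0.151% and 0.625% of AM-like cells, against 15170, 12070 and 12310 adjusted CPM in B-like cells. Its difference was -7.10 (SE 0.313, adjusted p = 1.9e-21). Rpl21, a large subunit protein, was at 0.20, 0.918 and 1.69 in AM-like cells and 4275, 4065 and 4415 in T-like cells (-6.59, adjusted p = 4.12e-21). Both genes were nearly unlisted in AM-like cells, while Rps29 and Rps28 lay between 1120 and 1353 adjusted CPM in the same cells.

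Further genes lay between these extremes in AM-like cells. Rpl9 was at 57.6, 10.4 and 36.7 adjusted CPM (-4.98) and Rps19, mutated in Diamond-Blackfan anaemia, at 57.0, 105 and 23.2 (-4.11). Rpl15 was at 24.6, 18.4 and 65.5 (-3.86). Rpl7l1 was the gene called higher, at 51.0, 75.9 and 66.3 (0.63, adjusted p = 0.00775). This call depended on the scale: 0 genes were called higher with centring (all genes 25.3%) and with the scale taken from all other genes (29.5%). Without neutrophil-like cells 1 gene was called higher (32.4%). Near-identical copies can take reads from a gene: 294 Rpl or Rps pseudogenes carry -ps in the mouse annotation, 60 of the 85 genes have at least 1, and the levels of such genes are uncertain to that extent. The excluded row Rpl9-ps6, for example, held 47.8, 44.4 and 20.8 adjusted CPM over whole libraries. The sources used here do not say how the depositors' adjustment treated low genes, and its part in these near-zero levels was not tested.

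Neutrophil-like cells had 80 of 83 genes called lower and 1 higher, against 66.5% and 17.9% of all genes, with a median of -5.83 against -0.77. Rpl37a was at 4.01, 20.6 and 1.08 adjusted CPM (-6.91, adjusted p = 1.47e-24). Rps28 was listed at 0 in the FLASH library and at 1.34 and 31.5 in the others (-6.88). The median neutrophil-like cell had 5, 3 and 3 of the 85 genes above 0, where the median T-like cell had 79 in each library.

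A few genes carried most of what neutrophil-like cells held. Rps9, a small subunit protein at the mRNA entry of the ribosome, was at 2534, 2283 and 2558 adjusted CPM and above 0 in 92.8%, 87.8% and 90.1% of these cells, a rise of 1.04 (SE 0.298, adjusted p = 0.0018). Rps27 was at 1267, 1028 and 1106 (-0.58, adjusted p = 0.0838). Rps27a, which is made as a fusion with ubiquitin, was at 1092, 1163 and 1312 (-0.44, adjusted p = 0.112). Rpl37 was at 1432, 852 and 1221 and fell by 0.68 (adjusted p = 0.00254).

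A few transcripts outside the 85 genes were also listed unevenly in neutrophil-like cells. Eef1a1, the abundant elongation factor, was above 0 in 1.13%, 2.63% and 0.990% of them and Ptma in 0.755%, 0.987% and 0%. Fau, whose product includes the small subunit protein S30, was above 0 in 92.5%, 84.9% and 87.1%. In ciliated-like cells Fau was above 0 in 0%, 0% and 5.28% and B2m in 0%, 0% and 3.77%, and in club-like cells Actb in 0%, 0% and 20.3%. These genes are used by nearly every cell, and the part of whatever set them to 0 in the ribosomal protein results was not tested.

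**Figure D3:**
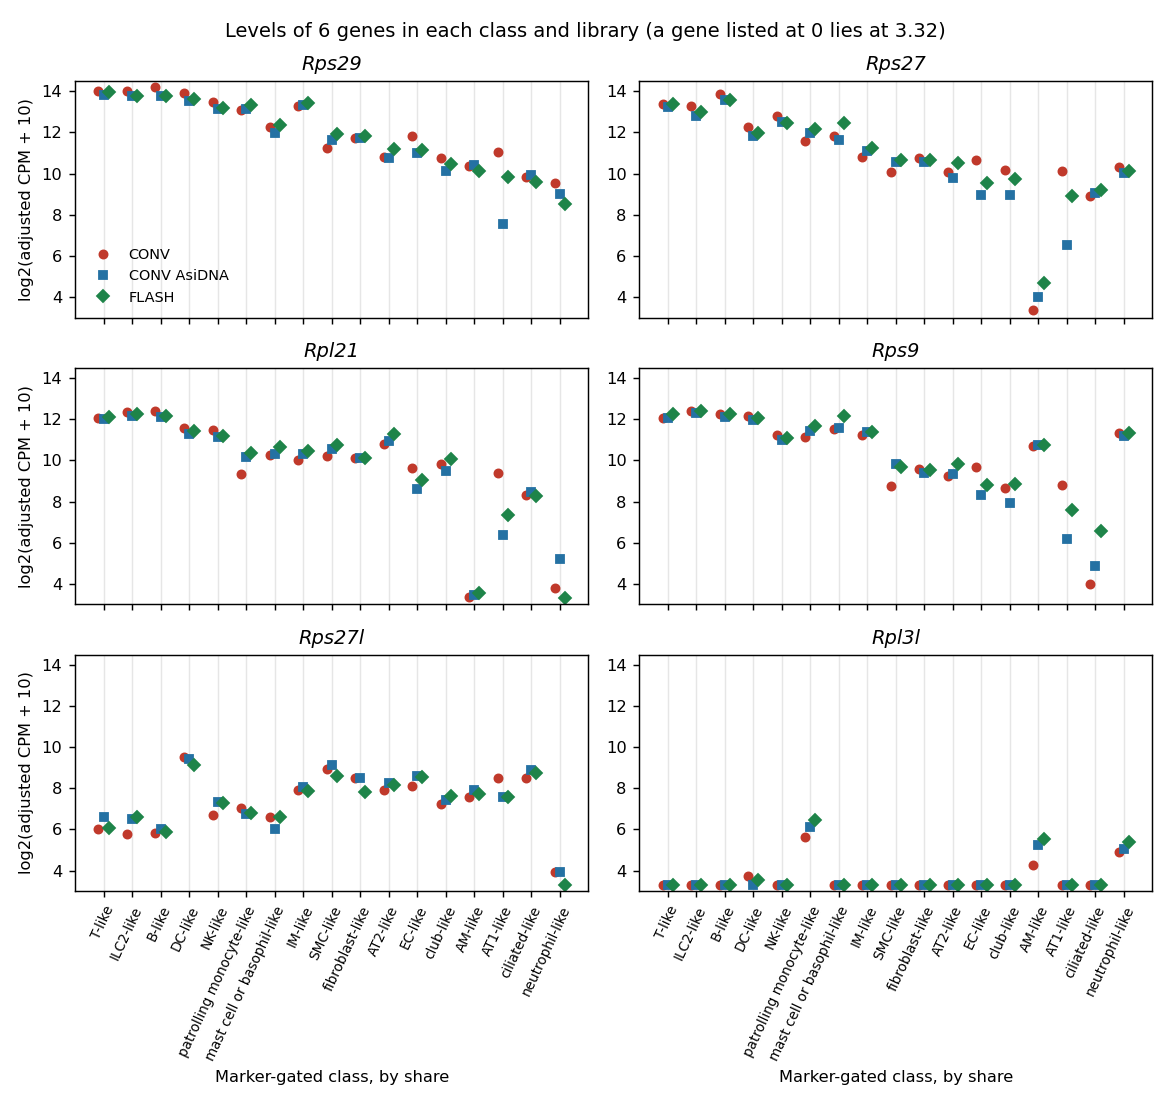
Levels of Rps29, Rps27, Rpl21, Rps9, Rps27l and Rpl3l as log2(adjusted CPM + 10) (y axes) in the 17 classes ordered by share (x axes), with 1 symbol for each library. Rps27 and Rpl21 drop to the floor in AM-like cells, Rps9 drops in ciliated-like cells and is high in neutrophil-like cells, and Rps27l is lowest in neutrophil-like cells and low in B-like and T-like cells.

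Ciliated-like cells had 77 of 83 genes called lower and 2 higher (all genes 30.1% and 37.5%), with a median of -1.84 against 0.13. Rps9 was at 5.96, 18.9 and 85.7 adjusted CPM (-5.46, adjusted p = 5.37e-19), the reverse of its place in neutrophil-like cells. Rps19 was listed at 0 in the CONV library and at 64.0 and 76.9 in the others (-4.81). Rpl41, the smallest ribosomal protein, rose in ciliated-like cells (2704, 3402 and 3116 adjusted CPM, 1.14, adjusted p = 0.000451), as did Rps27l (351, 469 and 420, 1.43, adjusted p = 5.57e-09).

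AT1-like cells had 75 genes called lower and 1, Rps27l, higher (all genes 28.6% and 30.1%), led by Rps9 (-2.94), Rps4x (-2.92) and Rpsa (-2.69). With centring 79 were lower and 0 higher (all genes 40.7% and 19.4%). Without neutrophil-like cells 79 were lower and 0 higher (29.0% and 28.2%), so the higher call of Rps27l depended on the scale and the reference. AT2-like cells had 32 called lower and 4 higher, both below the shares of all genes (46.2% and 20.8%). Rpl21 and Rps19, among the lowest genes of AM-like cells, were called higher in AT2-like cells. Rpl21 was at 1762, 1985 and 2465 adjusted CPM (1.45, adjusted p = 6.78e-05) and Rps19 at 2018, 2212 and 2752 (1.41, adjusted p = 0.00147). Rplp1 was lowest at 334, 759 and 912 (-1.53, adjusted p = 1.17e-05). The count of lower calls in AT2-like cells was 61 with neutrophil-like cells left out (all genes 47.6%), 15 with centring (34.9%), and also 15 with 1 added in place of 10 or with 4 markers. It was 15 to 21 when 1 library was left out. The counts with 1 added, with 4 markers or without 1 library have no share of all genes beside them and show only how far the calls moved.

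EC-like cells had 45 genes called lower and 3 higher (all genes 20.4% and 44.9%), with a median of -0.61 against 0.42. Rps9 (-1.44), Rps26 (-1.31) and Rps28 (-1.21) were lowest, and Rps27l (1.13), Rps19bp1 (0.84) and Rpl7l1 (0.80) were higher. The count of lower calls was 70 without neutrophil-like cells (all genes 20.4%) and 79 with classes centred on the median gene (39.1%). It was 11 to 61 when 1 library was left out, a range with no share of all genes beside it. Club-like cells had 60 genes called lower and 0 higher, both below the shares of all genes (81.9% and 6.25%). With centring the direction turned to 2 lower and 28 higher (all genes 19.9% and 29.0%), so that the share of higher calls was near that of all genes. Rps9 (396, 238 and 454 adjusted CPM, -1.91) and Rpl22l1 (91.1, 53.1 and 65.5, -1.76) were among its lowest genes.

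In fibroblast-like cells 9 genes were called lower and 3 higher (all genes 24.9% and 31.5%), with a median of -0.09, and with centring 37 were lower and 1 higher (41.7% and 19.0%), a share of lower calls near that of all genes. In SMC-like cells 14 were called higher and 3 lower (all genes 31.6% and 28.8%), and with centring 4 were higher and 7 lower (22.8% and 38.6%). Rps27l rose in both, at 348, 350 and 216 adjusted CPM in fibroblast-like (0.95) and 489, 548 and 374 in SMC-like cells (1.61, adjusted p = 4.48e-10). Centring moved the median of all genes from -1.03 to 0.15 in club-like, from -0.77 to 0.58 in neutrophil-like and from 0.42 to -0.29 in EC-like cells, and the direction of most calls in T-like, B-like, AM-like, AT1-like, ciliated-like and neutrophil-like cells did not turn with it.

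The stalk proteins all rose in T-like, B-like and ILC2-like cells but did not move together in every class. Rplp0, on which the others sit, was at 4568, 4977 and 5289 adjusted CPM in T-like cells, 770, 365 and 427 in EC-like cells, and 9.34, 20.6 and 0 in neutrophil-like cells. Rplp1 reached 11070, 11570 and 12060 in ILC2-like cells and 2694, 2425 and 2413 in AM-like cells. AM-like cells thus had more Rplp1 than AT2-like or patrolling monocyte-like cells in every library, although their share over all 85 genes was lower. Rplp2 was at 4387, 4326 and 5123 in T-like cells and at 104, 235 and 249 in ciliated-like cells.

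The paralogs Rpl36al and Rpl22l1 differed from their parents in level. Rpl36al was at 772, 883 and 871 adjusted CPM in T-like cells beside 2285, 2093 and 2365 for Rpl36a, and at 204, 262 and 215 in EC-like cells beside 630, 249 and 290. Rpl22l1, the paralog of Rpl22, was at 912, 970 and 956 in T-like cells and at 77.8, 73.5 and 74.3 in AM-like cells, with Rpl22 at 2294, 2359 and 2419 and at 232, 318 and 296. In EC-like cells of the CONV AsiDNA library Rpl36al was above its parent, and in the other values given so far both paralogs were below theirs. Some other classes went the other way. In AT2-like cells Rpl36al was at 398, 396 and 478 beside 197, 310 and 395 for Rpl36a. Rpl36al was also above its parent in every library of AT1-like and ciliated-like cells. Rpl22l1 was above Rpl22 in ciliated-like cells, at 225, 290 and 243 beside 127, 147 and 129.

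Rpl3l, known from heart and skeletal muscle, was listed above 0 in 4 classes only. It was at 40.4, 60.4 and 78.9 adjusted CPM in patrolling monocyte-like cells, 9.60, 28.2 and 36.7 in AM-like cells and 20.0, 22.8 and 31.4 in neutrophil-like cells. DC-like cells had 3.2, 0 and 1.6, and in the other 13 classes it was listed at 0. It was above 0 in 414 of 19622 cells. Its parent Rpl3 was at 233, 274 and 271 in AM-like cells and at 0, 18.5 and 0 in neutrophil-like cells, so the paralog was above the parent in neutrophil-like cells of every library. Rpl39l, known from testis, was above 0 in 50 cells.

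Rps27rt, a near-copy of Rps27 whose reads may be split with it, was at 220, 243 and 154 adjusted CPM in B-like cells and at 3.60, 2.45 and 0.845 in AM-like cells, the 2 classes where Rps27 itself was high and nearly unlisted. Rps27l was above 0 in 7402 of 19622 cells (37.7%). Against Rps27, the ratio of paralog to parent turned over: Rps27l was at most 54.8 and Rps27 at least 12070 adjusted CPM in B-like cells, while Rps27 was at most 15.6 in AM-like cells, where the log2 difference of Rps27l was 0.39 (adjusted p = 0.0508).

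The make-up of the ribosomal protein pool differed between classes. The large subunit part of all counts in the 85 genes ran from 30.3% to 67.0% with a median of 54.3%. Neutrophil-like cells were at 33.0%, 31.5% and 30.3% and ciliated-like cells at 66.1%, 67.0% and 64.9%, and the 2 classes lay at opposite ends in each library. Of other classes with a low share, AM-like cells were at 56.3%, 56.1% and 56.6% and AT1-like cells at 56.6%, 63.5% and 57.3%. Patrolling monocyte-like cells were at 47.5%, 49.3% and 49.9%. Over the 136 pairs of classes, the rank correlation of the 77 core genes' shares of the pool had a median of 0.654 and ran from 0.148 to 0.965. Classes share their libraries and the correlation is across genes, so it is a description.

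Within T-like cells the share followed the naive and effector markers. Naive T-like cells (with markers such as Lef1, Ccr7 and Tcf7; 288, 198 and 366 cells) held 52.1%, 47.6% and 53.4% of counts in the 85 genes. Effector T-like cells (Ccl5, Nkg7, S100a4, Id2, Cxcr6 and Itgb1; 472, 294 and 331 cells) held 30.9%, 28.1% and 29.2%. The 2 subsets did not overlap over the 3 libraries, and the median naive cell had fewer genes above 0 (916.5, 1089 and 963) than the median effector cell (1200, 1356 and 1331).

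Of the 83 genes, 80 were higher in naive than in effector T-like cells in every library (13.2% of all genes were), and 7 by at least 2-fold (1.66%). Rps20, a small subunit protein, was at 9633, 9441 and 10390 adjusted CPM in naive and 4083, 3840 and 3782 in effector cells. Rps19 was at 8502, 7676 and 8816 against 3637, 3234 and 3396. The 3 genes lower in naive cells in every library (all genes 60.2%) were Rps27l, Rpl7l1 and Rps19bp1, none of them core. Rps27l was lower by at least 2-fold (all genes 13.6%), at 3.09, 40.0 and 6.94 in naive and 80.6, 99.2 and 96.6 in effector cells.

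Dividing T-like cells, with at least 3 of Mki67, Top2a, Birc5, Cdk1, Ube2c and Tpx2 (29, 25 and 32 cells), held 26.1%, 22.8% and 27.6%, against 37.5%, 36.7% and 40.4% in the remaining T-like cells. There 68 of the 83 genes were lower in dividing cells in every library (all genes 32.1%) and 7 higher (25.2%). Of the 5 genes lower by at least 2-fold (4.69%), Rps27 was at 3018, 2549 and 2509 adjusted CPM in dividing and 10980, 9739 and 11170 in other T-like cells. Rps27rt, Rps24, Rpl12 and Rps21 were the others. Rps27l was higher by at least 2-fold (6.7%), at 271, 319 and 342 against 48.4, 78.0 and 47.4, so that Rps27 and its paralog moved in opposite directions in each library.

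**Figure D4:**
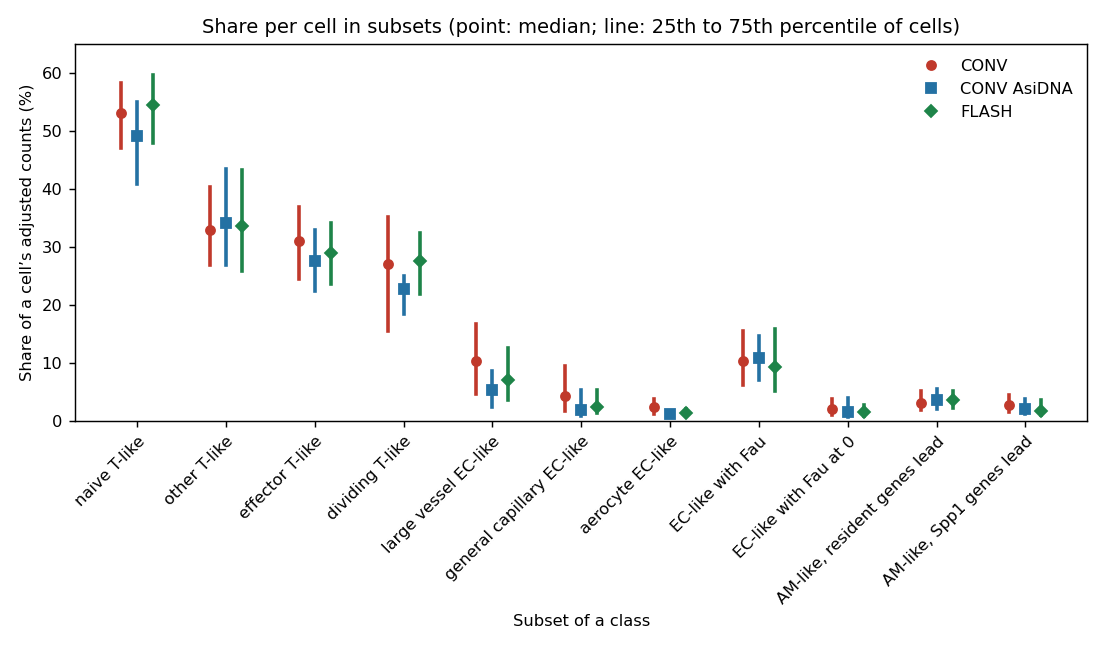
Share of a cell's adjusted counts (%, y axis) held by the 85 genes in subsets of T-like, EC-like and AM-like cells (x axis), with the median cell as a symbol and the 25th to 75th percentile of cells as a line, for each library. Naive T-like cells lie highest, and EC-like cells with Fau above 0 lie above those with Fau at 0 in every library.

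Endothelial subsets differed in the same ordered way in each library. Aerocyte EC-like cells (Car4, Ednrb) held 3.00%, 1.85% and 2.18%, general capillary EC-like cells (Gpihbp1, Plvap) 6.86%, 4.16% and 4.93%, and large vessel EC-like cells (Vwf, Vcam1) 11.2%, 6.42% and 8.30%. Of 81 genes compared, 77 were higher in large vessel than in aerocyte cells in every library (all genes 25.0%), 66 of them by at least 2-fold (8.5%), and 0 were lower by 2-fold (7.63%). Rps14, a small subunit protein, was at 2251, 1135 and 1396 adjusted CPM in large vessel and 276, 4.78 and 63.0 in aerocyte cells. Rps27l did not keep that direction, with 228, 545 and 432 in large vessel and 335, 365 and 330 in aerocyte cells.

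AM-like cells led by Spp1, Gpnmb and Mfge8 held 3.30%, 2.80% and 2.56%, and those led by the resident genes Krt79, Cidec and Fabp1 held 4.45%, 4.02% and 4.10%. The Spp1-led cells numbered 788, 176 and 96 and the resident-led cells 42, 336 and 289, so the 3 libraries mixed these subsets differently. B-like cells with Ighd, a marker of naive B cells, held 38.8%, 33.5% and 35.1%, and those with Ighd at 0 held 39.5%, 33.5% and 34.9%. The B-like subsets differed by less than the libraries did.

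Between libraries, the values of 1 mouse each were compared as log2 ratios of adjusted CPM + 10, and 2-fold marks the size that was counted. T-like cells differed little. The median over 83 genes was 0.02 where CONV was set over CONV AsiDNA, -0.11 where CONV was set over FLASH, and -0.13 where CONV AsiDNA was set over FLASH. In these ratios 0 of the 83 genes passed 2-fold upward (all genes 1.04%, 1.52% and 0.741%) or downward (0.971%, 0.651% and 0.25%). B-like cells had medians of 0.19, 0.14 and -0.06, and again 0 of 83 genes passed 2-fold upward (0.517%, 0.869% and 1.21%) or downward (2.61%, 2.68% and 0.495%). Fibroblast-like cells had medians of 0.02, -0.05 and -0.05, and 1 gene, Rps27rt, was past 2-fold for CONV over FLASH (31.9 and 8.69 adjusted CPM), a share below the 6.48% of all genes.

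EC-like cells stood higher in the CONV library, with a share of 7.82% against 3.77% with AsiDNA and 4.55% after FLASH. The median ratio of CONV over CONV AsiDNA was 1.01 (all genes -0.04), with 42 of 83 genes at least 2-fold higher (all genes 3.82%). For CONV over FLASH the median was 0.81 with 14 genes 2-fold higher (4.16%), and these 2 comparisons share the CONV library. The same 14 genes were 2-fold higher in CONV than in both others (2.53%), among them Rps28 at 1536, 332 and 581 adjusted CPM, Rps6, the substrate of the S6 kinases, at 1110, 420 and 414, and Rps14 at 1367, 521 and 581. Rps19bp1 was 2-fold lower in CONV than in both (21.4, 54.0 and 53.9), 1 gene of 83 and a share below the 2.06% of all genes.

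Fau moved with this difference: it was above 0 in 58.5%, 7.37% and 23.2% of EC-like cells. Among EC-like cells with Fau (216, 33 and 112 cells) the share was 11.4%, 12.0% and 11.6%, and among those with Fau at 0 (153, 415 and 370 cells) it was 2.54%, 3.14% and 2.34%. Within these subsets the median ratio of CONV over CONV AsiDNA turned to -0.11 and -0.31. The libraries also held different numbers of aerocyte EC-like cells, 69, 166 and 181, and the median was 0.69 within general capillary cells. The share stayed highest in CONV within aerocyte (3.00%, 1.85% and 2.18%), general capillary (6.86%, 4.16% and 4.93%) and large vessel cells (11.2%, 6.42% and 8.30%). Fau was itself a gene of the TOP group and its cells were chosen by it, so these are values for cells that list or do not list a co-varying transcript.

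**Figure D5:**
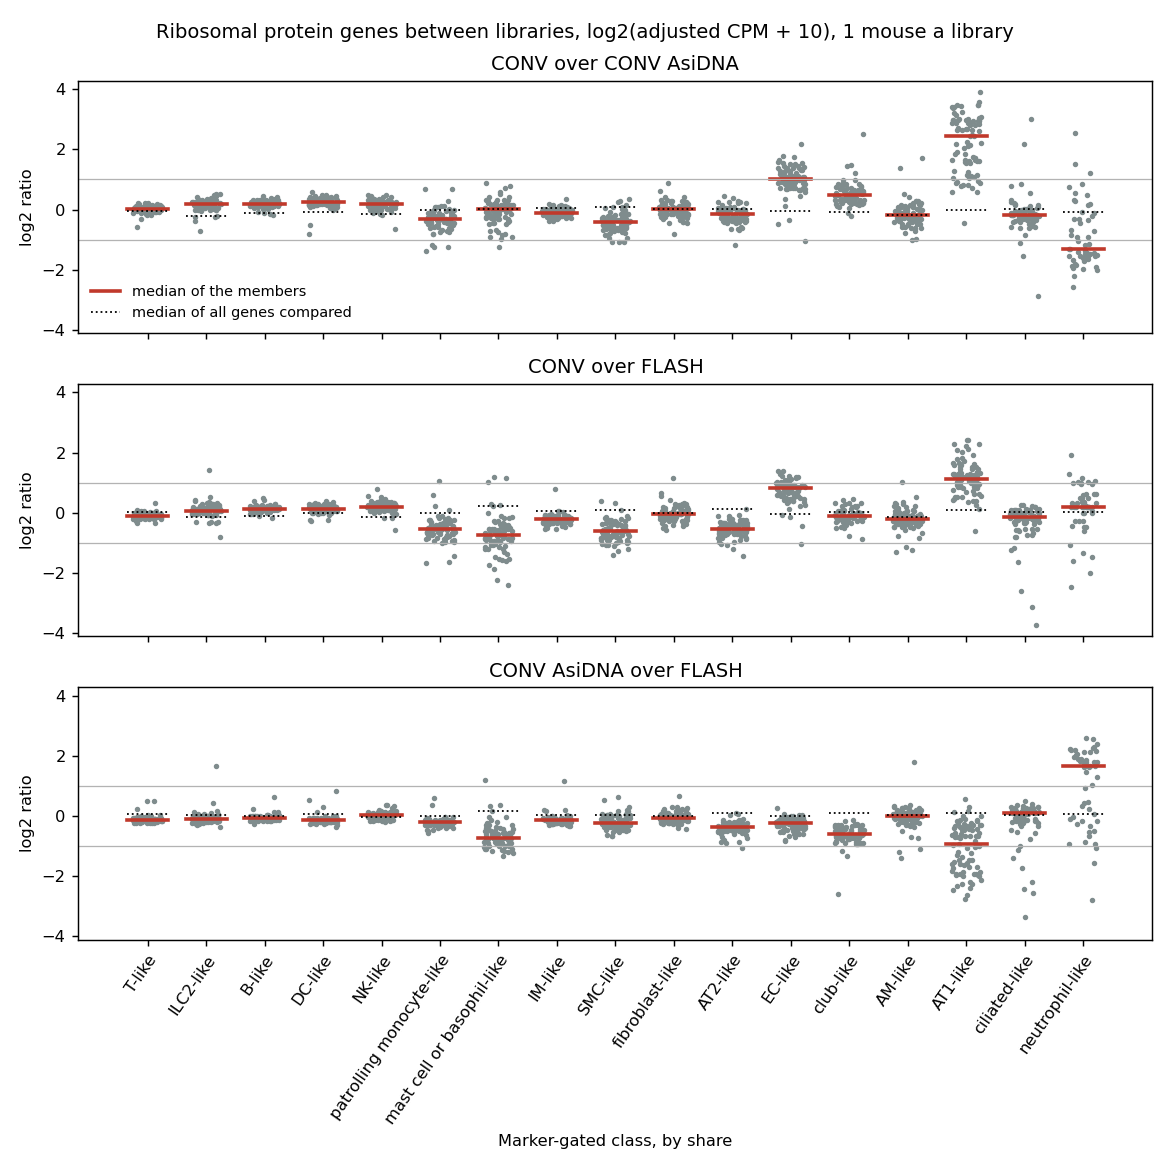
Log2 ratios of adjusted CPM + 10 between pairs of libraries (panels) for each compared gene (grey points) in each class (x axis), with the median of the ribosomal protein genes in red and that of all genes dotted. EC-like and AT1-like cells lie above 0 where CONV is the numerator, neutrophil-like cells spread widely, and T-like and B-like cells lie near 0.

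AT1-like cells had the highest median ratio of CONV over either of the others among the 17 classes. Their share was 5.41% (CONV), 1.23% (CONV AsiDNA) and 2.37% (FLASH), on 87, 60 and 107 cells. Of 82 genes, 71 were at least 2-fold higher in CONV than in CONV AsiDNA (all genes 10.3%, median of the genes 2.45), 49 were higher in CONV than in FLASH (11.7%, median 1.11) and 38 were lower in CONV AsiDNA than in FLASH (5.56%, median -0.94). Rpl28, a large subunit protein, was at 549, 56.2 and 95.3 adjusted CPM and Rpl38 at 1232, 184 and 243. Rpl39, at the peptide exit tunnel, was at 1047, 61.4 and 474. The share of AT1-like cells with under 1% of counts in the 85 genes was 28.7%, 60.0% and 57.0%, so that the libraries also differed in how many cells listed almost none.

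AT2-like cells ran the other way with smaller ratios, at 5.29%, 5.84% and 7.64%. The median for CONV over FLASH was -0.55 with 4 genes 2-fold lower (all genes 1.75%). Rplp1 was the 1 gene of 83 that was 2-fold lower in CONV than in both others, a share near that of all genes (1.25%). In patrolling monocyte-like cells, of which CONV held 43 against 223 and 326, Rplp1, Rpl41 and Rpl10a, 3 of 84 genes, were 2-fold lower in CONV than in both others, a share below that of all genes (8.94%). Mast cell or basophil-like cells held 11.4%, 11.6% and 19.0% on 108, 78 and 25 cells, with 21 genes 2-fold lower in CONV than in FLASH (13.5%) and 13 lower in CONV AsiDNA than in FLASH (9.39%). SMC-like cells, at 38, 43 and 31, had medians of -0.40 and -0.61 for CONV over the AsiDNA and FLASH libraries, with Rplp1 (971, 2051 and 2270) and Rps13 (350.0, 748 and 741) 2-fold lower in CONV than in both. These 2 of 81 genes were a share below that of all genes (3.77%).

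In ciliated-like cells, with 294, 401 and 265 cells, single genes differed by at least 2-fold from both other libraries. Rplp2, Rps19 and Rps26 were lower in CONV (all genes 0.364%), with Rps26 at 0, 18.9 and 122 adjusted CPM. Rpl28, at 81.3, 10.0 and 109, was among 2 genes lower in CONV AsiDNA (0.105%), and Rps26, Rps9 and Rpsa were among 4 higher in FLASH (0.201%). In club-like cells Rps16, at 559, 197 and 515, was among 3 genes lower in CONV AsiDNA (0.875%). Neutrophil-like cells had 18, 1 and 56 of the 85 genes listed at 0 in the CONV, CONV AsiDNA and FLASH libraries. The share of all genes listed at 0 is not given, so these counts are no result about the 85 genes. Values in CONV AsiDNA could rest on few cells, with Rpl11 above 0 in 1.32% and Rps14 in 1.645% of 304 cells. Of 53 genes with enough counts, 30 were 2-fold lower in CONV than in CONV AsiDNA (all genes 9.45%) and 32 higher in CONV AsiDNA than in FLASH (8.8%). Genes such as Rps2 (0, 49.9 and 0 adjusted CPM) and Rps6 (0, 25.0 and 0) had enough counts only through CONV AsiDNA. The filter favoured genes high in that library, so these counts and the medians that follow give no direction between libraries. The median for CONV over CONV AsiDNA was -1.32 and became 0.0296 with a higher minimum of counts. For CONV AsiDNA over FLASH it was 1.67 and became -0.21 with that minimum and -0.29 with stricter gating.

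Other genes of translation were counted from lists. Of the 6 elongation factor genes tested, 6 rose in T-like cells (all genes 25.0%) and 6 fell in neutrophil-like cells (all genes 66.5%), where Eef1a1 was at -7.25 (adjusted p = 1.8e-27). Of 12 other known TOP mRNAs, 12 rose in DC-like (all genes 20.2%) and 10 in T-like cells (25.0%), including Rack1, a protein of the 40S head (2.43 in T-like cells). In ciliated-like cells 10 of the 12 fell and 1 rose (all genes 30.1% and 37.5%), with Fau at -6.56. In AM-like cells 5 fell and 3 rose (all genes 34.5% and 33.6%), among them Vim, a filament protein, by 3.12.

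Ribosome biogenesis factors build the subunits in the nucleolus. Of 21 tested, 14 rose in T-like (all genes 25.0%) and 12 in B-like cells (20.2%), with 0 falling. In SMC-like cells 14 rose (31.6%) and 0 fell, and in EC-like cells 10 rose and 0 fell, a share of rises near the 44.9% of all genes called higher there. The genes of mitochondrial ribosomal proteins serve the separate ribosome of mitochondria. Of 73 tested, 53 rose and 2 fell in ciliated-like cells (all genes 37.5% and 30.1%, median of the list 0.84), where 77 of the 83 cytosolic genes fell. In EC-like cells 34 rose and 0 fell (all genes 44.9% and 20.4%), and the list's median of 0.48 was near that of all genes, 0.42. In T-like cells 29 rose and 2 fell (25.0% and 35.2%). In B-like cells 11 rose and 4 fell, both shares below those of all genes (20.2% and 40.1%). In neutrophil-like cells 70 of the 73 fell (66.5%). Of the 11 regulators of TOP translation and mTORC1, 7 rose in EC-like cells (all genes 44.9%), 11 fell in club-like cells (81.9%), and 7 fell and 3 rose in neutrophil-like cells (66.5% and 17.9%). In AM-like cells 3 of the 11 rose and 0 fell, both shares below those of all genes (33.6% and 34.5%). Larp1 was among these 3 (1.39, adjusted p = 2.92e-08), and a relation of its level to that of the cytosolic genes was not tested.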

How the data were processed

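Per the labels, lung cells of 3 irradiated mice were profiled by droplet 3′ sequencing (v3.1 chemistry), and the submitters' processing notes name Cell Ranger 6.0.0 and mm10. The deposited values are natural log values: after conversion and removal of an added 1, all were whole within 1e-06. The depositors' totals per cell lie in a narrow range and some common genes are at 0, so the authors' counts appear adjusted for depth and background, by steps that the sources used here do not name. No count model was used. Tables of other assays (12 per-sample columns and columns of the authors' own comparisons, fold changes and p-values) were not used.

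Cells with under 200 genes were removed (3 cells). Classes were gated by markers and no doublet caller was run. Counts were summed per class and library, scaled to a total of 1000000, and fitted in limma 3.58.1 (R 4.3.3) as log2(adjusted CPM + 10) with the library as a block (32 residual degrees of freedom), after testing on simulated data. An adjusted p of 0.05 and a 2-fold ratio were the thresholds. Ratios between libraries needed a sum of 20 in the class. Python 3.11.15 was used for the rest. Each library is a single mouse, and shifts common to all its classes are taken up by the block. P-values rest on how class differences varied between the 3 libraries, pooled over 17 classes, and not on the spread of levels between mice. Control mice were not analysed here, and protein sequences were not used here.

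Named genes are the 8 highest and 5 lowest by mean level, the stalk genes and Rpsa, paralogs with their parents, up to 3 called genes per class and direction, up to 4 genes past 2-fold in 1 library against both others, and the largest changes of the other lists. The members and lists were chosen with earlier results of these data known. Genes named for neutrophil-like and AM-like cells beyond this rule, the comparisons of single genes between subsets, the endothelial, Fau and Ighd subsets, the fit without neutrophil-like cells and the scaling within ribosomal protein genes were chosen after seeing the data. Alternatives were another added number, centring, array weights, no library block, stricter gates and filters, and leaving out each library. Some genes that met these rules are not reported here.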

Additional observations from a re-analysis of the deposited data

How the results depend on the processing

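Of the values recomputed for the main results, 137 stayed within their spread or within 1.5 times, 29 moved and 3 changed sign. Of those for single classes and genes 687 stayed, 120 moved and 12 changed sign. Without mitochondrial genes, Gm42418, AY036118 and Malat1 in the total, the share was 39.2% in B-like, 40.0% in T-like, 3.84% in AM-like and 0.944% in neutrophil-like cells, and with 4 markers it was 0.854% in neutrophil-like cells. Relative to the sum of ribosomal protein genes, 3 genes were called higher in B-like and 3 in T-like cells (all genes 3.251% and 3.6%). In AM-like cells 15 were lower and 16 higher (all genes 18.42% and 59.49%). Lower calls were 69 in neutrophil-like (all genes 45.02%), 0 in EC-like (12.53%) and 2 in AT2-like cells (23.35%). On this scale the shares called higher in B-like and T-like and lower in AM-like cells were near those of all genes. That scale fixes the sum of these genes in every class by construction and tests nothing about their level. With the scale taken from all other genes, 82 were higher in B-like and 81 in T-like cells (all genes 33.1% and 40.1%). The lower calls numbered 72 in AM-like (37%), 58 in EC-like (21.1%) and 39 in AT2-like cells (49.4%), the last a share near that of all genes. In EC-like cells the lower calls numbered 79 with centring on the median gene (all genes 39.1%) and 70 without neutrophil-like cells (20.4%). They numbered 17 with 1 added in place of 10, 74 with array weights, 27 with 4 markers and 11 to 61 without 1 library. In AT2-like cells they numbered 15 with centring (all genes 34.9%) and 61 without neutrophil-like cells (47.6%). They numbered 15 with 1 added, 15 with 4 markers and 15 to 21 without 1 library. Counts with no share of all genes beside them show only how far the calls moved. The cause of these moves was not tested.

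Between libraries, the EC-like median for CONV over CONV AsiDNA was 0.69 in general capillary cells, -0.11 with Fau and -0.31 with Fau at 0. For CONV over FLASH it was 0.49 in aerocyte, 0.46 in general capillary and 0.44 in large vessel cells, -0.0305 with Fau and 0.11 with Fau at 0. Medians of single classes changed sign as follows. For CONV AsiDNA over FLASH in EC-like cells they were 0.0382 with Fau and 0.42 with Fau at 0. In AM-like cells CONV over CONV AsiDNA was 0.0132 with centring, 0.18 in Spp1-led and 0.13 in resident-led cells, and CONV over FLASH was 0.35 and 0.12 in the same subsets. In neutrophil-like cells CONV over CONV AsiDNA went from -1.32 to 0.0296 with a minimum sum of 50, CONV over FLASH from 0.18 to -0.0208 with 4 markers, and CONV AsiDNA over FLASH from 1.67 to -0.29 with 4 markers and -0.21 with that sum. In club-like cells CONV over FLASH was 0.24 with at least 500 genes per cell. No paired analysis was possible because each condition has 1 library.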
